A study of Homo sapiens with 8 samples.

Results

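Transcripts of the cytosolic ribosomal protein genes were examined in HepG2 cells that had received a GRHL2 expression plasmid. Members were the table rows whose symbol is RPL or RPS followed by a number, with an optional A, L, X or L1, together with RPLP0, RPLP1, RPLP2 and RPSA. This rule found 81 of the 17561 genes: 46 proteins of the large subunit, 30 of the small subunit and the 5 paralogs RPL3L, RPL7L1, RPL22L1, RPL26L1 and RPS27L. RPS18, RPL10L and RPL39L were not analysed here. FAU, RACK1 and RPL36AL also belong to the ribosome or its protein families but fall outside the rule, and are given separately.

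HepG2 is a human hepatocarcinoma line. The 8 mRNA libraries came from cells harvested 48 h after transfection, 4 with pGRHL2 and 4 with the control plasmid pcDNA3, and libraries of the 2 groups share the replicate numbers 1 to 4. GRHL2 is an epithelial transcription factor. The GRHL2 plasmid carried a flag-tagged cDNA under the EEF1A1 promoter with EGFP on the same transcript, and effects of the insert and of the other plasmid parts, which also differ, cannot be told apart. All cells were of a single line and all were transfected, and the libraries of each group are described in the study as independent biological replicates.

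The cytosolic ribosome makes the proteins encoded by nuclear genes in every cell. Its small subunit decodes the mRNA and its large subunit joins amino acids, and each is built in the nucleolus from ribosomal RNA and ribosomal proteins, most of them in a single copy. The mRNAs of most of these proteins begin with a C followed by a run of pyrimidines (the 5′ terminal oligopyrimidine, or TOP, motif), through which mTOR signalling controls their translation.

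Values are on a log2 scale and per transcript length, so that levels may be compared between genes. In every one of the 17561 genes the mean of a pcDNA3 library and the pGRHL2 library with the same number was the same for all 4 numbers. The groups therefore mirror each other: a gene that is high in pcDNA3 library 3 is low in pGRHL2 library 3 by the same amount, and the information lies in the 4 differences, pGRHL2 minus pcDNA3, called pairs below. Mean log2 fold changes (log2 FC) are given ± SD of the 4 pairs. Read counts were not analysed here, so that depth is unknown.

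The group labels were checked on GRHL2, whose level lay between 6.61 and 7.25 in pcDNA3 and between 16.22 and 16.87 in pGRHL2 libraries (log2 FC 9.48 ± 0.57). Library medians over all genes lay between 6.71 and 6.73. Of the 6 hepatocyte markers, ALB (mean level 16.88) and AFP (17.11) were among the most abundant transcripts. SERPINA1 was at 14.51, APOB at 13.16, APOA1 at 11.86 and TTR at 9.83. The cholangiocyte markers KRT19, EPCAM, SOX9 and KRT7 were at 13.90, 11.61, 9.57 and 5.35. Among markers of other cells, PECAM1 (endothelial) was at 5.43 and COL1A1 (fibroblast) at 5.82, and PTPRC and COL1A2 were not analysed here. None of the 6 hepatocyte or the 4 cholangiocyte markers passed the test. KRT7 and SERPINA1 were higher in all 4 pairs, as were 13.4% of all genes. Their log2 FCs were 0.19 ± 0.12 (limma adjusted p = 0.0970) and 0.06 ± 0.08 (limma adjusted p = 0.451). The median of the hepatocyte markers in the 4 pairs was -0.03, 0.32, -0.06 and -0.12. That of the cholangiocyte markers was 0.14, 0.09, 0.07 and 0.23.

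The bases around the annotated start of selected mRNAs are shown first, because the TOP motif is the feature that ribosomal protein mRNAs share. Each line holds 10 bases before and 20 bases from the annotated start (RefSeq, GRCh38.p14, strand of the gene), with the run of C and T that begins at the start in capitals where it opens with C and holds at least 5 bases. RPL37A, RPL39, RPS28, RPS29, RPS27 and RPL41 are among the members that varied most between pairs (SD of the 4 pairs 0.36 to 0.55), RPL11 is one of the largest increases (0.24), RPS6 and RPLP0 varied less (0.11 and 0.05), RPL26 and RPL22 are parents of paralogs, and the last 4 are paralogs.
RPL11, chr1:23691796-23691825, plus strand: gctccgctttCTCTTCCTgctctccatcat
RPL37A, chr2:216498834-216498863, plus strand: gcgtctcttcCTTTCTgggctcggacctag
RPL39, chrX:119791611-119791640, minus strand: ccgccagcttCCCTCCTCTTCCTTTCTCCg
RPS28, chr19:8321486-8321515, plus strand: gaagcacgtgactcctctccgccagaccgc
RPS29, chr14:49598691-49598720, minus strand: agcgcgcagctggcagcggtggttgtttct
RPL41, chr12:56116623-56116652, plus strand: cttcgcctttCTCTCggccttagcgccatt
RPS27, chr1:153990752-153990781, plus strand: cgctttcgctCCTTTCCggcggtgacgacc
RPLP0, chr12:120201092-120201121, minus strand: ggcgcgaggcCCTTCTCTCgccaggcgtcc
RPS6, chr9:19380217-19380246, minus strand: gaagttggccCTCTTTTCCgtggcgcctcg
RPL26, chr17:8383174-8383203, minus strand: gcgtgtagttCTCTTCCCTTTTgcggccat
RPL22, chr1:6199576-6199605, minus strand: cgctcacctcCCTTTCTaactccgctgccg
RPL22L1, chr3:170870176-170870205, minus strand: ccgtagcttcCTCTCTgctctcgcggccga
RPL26L1, chr5:172958719-172958748, plus strand: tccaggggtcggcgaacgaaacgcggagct
RPL7L1, chr6:42879606-42879635, plus strand: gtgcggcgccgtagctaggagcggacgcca
RPS27L, chr15:63157458-63157487, minus strand: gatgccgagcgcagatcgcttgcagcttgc

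Of the 65 members with a RefSeq promoter entry, 46 (70.8%) had such a tract, compared with 6.74% of the 12829 genes of the table that have an entry. RPL22L1 had a tract like its parent RPL22, whereas RPL26L1, RPL7L1 and RPS27L had none. RPS28 and RPS29, among the most variable members, also had none at the annotated start. Only runs that open on an annotated start base were counted, and in RPS28 a run of C and T opens directly after that base. The GRHL-type palindrome AACCGGTT, which reads the same on both strands, was in none of the 65 windows from 250 bases before to 50 bases after the start, and in 0.234% of all windows (30 genes). These matches describe letters in a window and are no measure of binding.

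Ribosomal protein transcripts were among the most abundant of HepG2 cells. Their median level was 12.75 (mean of 8 libraries), 30 members were among the 100 genes with the highest level and 17 among the highest 50. The highest 5 were RPLP0, the base of the P stalk (14.98), RPL3 (14.92), RPS2 (14.91), RPL4 (14.77) and RPL7A (14.39). Of the 81 members, 53 were at 12 or above and 15 were below 10. The 64 members other than paralogs with a level of at least 10 spread over an SD of 1.08 around a median of 13.11.

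**Figure D1:**
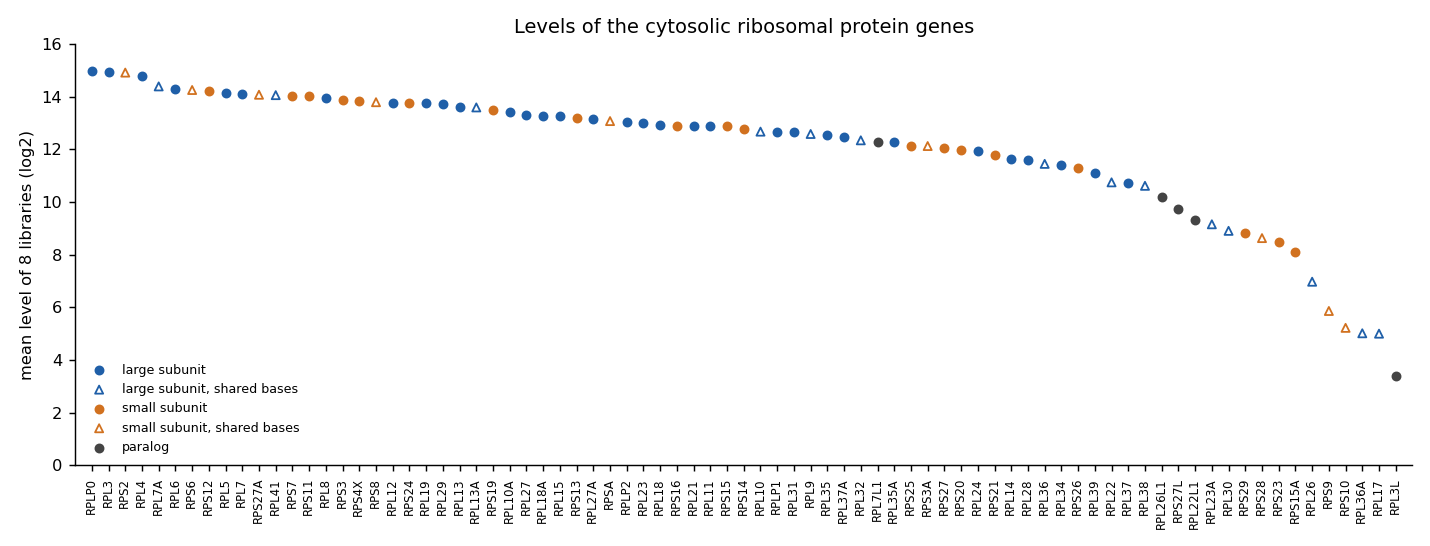
Mean level of the members over the 8 libraries (log2, per transcript length), ranked and coloured by subunit or paralog. Open triangles mark members with at least 10% of exon bases in another gene or an alternate copy, which include the low members RPS9, RPS10, RPL36A and RPL17.

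Low levels were those of RPL3L (3.40), RPL17 (5.00), RPL36A (5.01) and RPS10 (5.22), of which all but RPL3L are core subunit proteins. RPL17 shares 35.5% of its exon bases with another annotated gene, RPS10 31.5% and RPL36A 22.4%. Among the 15 members below 10, 9 shared at least 10% of their exon bases or had an alternate copy, compared with 15 of the 66 others. The part of such shared bases in the levels was not tested.

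None of the 81 members passed the test between pGRHL2 and pcDNA3 in either direction (limma, blocked on replicate number, Benjamini-Hochberg adjusted over all genes). Over all genes, 297 were higher (1.69%) and 88 lower (0.501%). At an unadjusted p under 0.05 there were 2 members, RPL3L and RPL26L1, against 16% of all genes, and the smallest adjusted p of a member in limma was 0.198. No filter on level was used, so that all members were tested. Without the replicate block, the fit counts 6 in place of 3 residual degrees of freedom. Because the pair means were already made equal, the values do not hold these extra degrees of freedom, and the fit calls too freely. In it, 3 members, RPL3L and RPL4 among them, were higher and RPL26L1 was lower. Over all genes, 10.4% were then higher and 8.13% lower.

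Mean fold changes were small. They ran from -0.18 (RPL26L1) to 0.15 (RPL23), with a median of 0.03 against 0.00 over all genes and -0.02 over the 2107 other genes with a level of at least 10. The mean log2 FC was above 0 in 60 members and below 0 in 21, compared with above 0 in 9042 of all 17561 genes and in 828 of the 2107 other genes with a level of at least 10. Among the members it reached 0.1 in size in 8. The 95% interval included 0 in 79 members and lay within ±0.5 in all 81. Median log2 FC was 0.04 for the large subunit, 0.02 for the small subunit and 0.01 for the paralogs. With 1 replicate left out at a time, these ran from 0.01 to 0.11, from -0.01 to 0.11 and from -0.03 to 0.01, so that the last 2 changed sign.

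**Figure D2:**
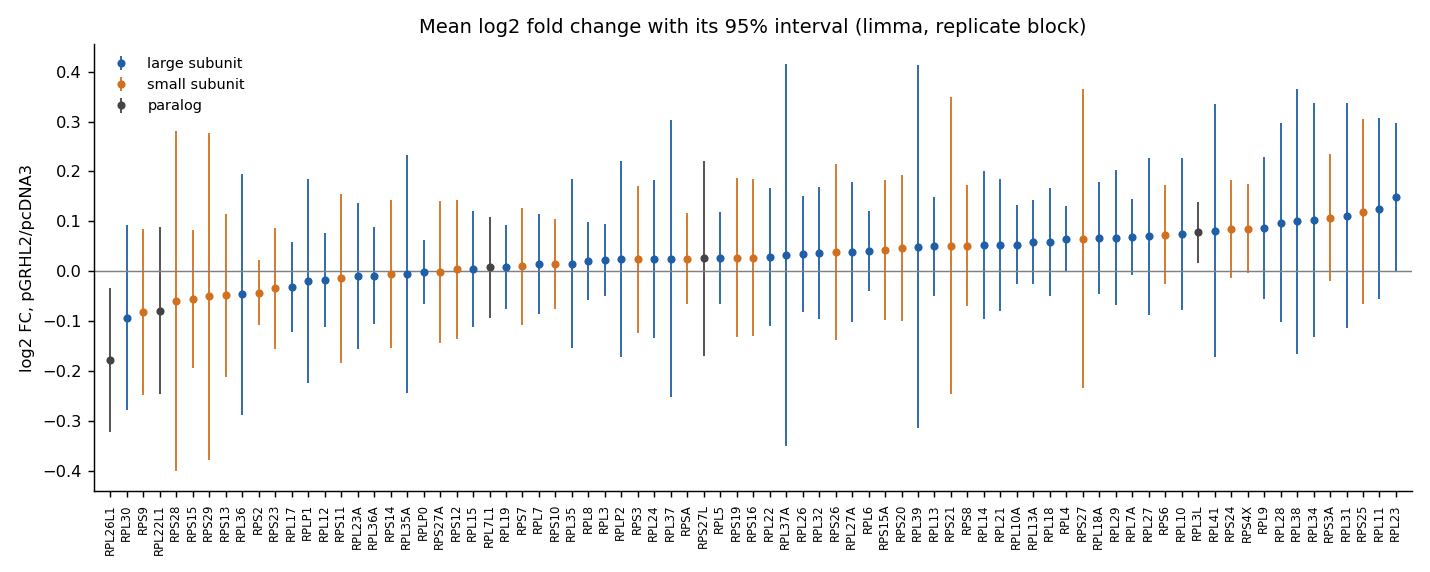
Mean log2 FC of the members, pGRHL2 minus pcDNA3, ranked, with the 95% interval of the limma fit and coloured by subunit or paralog. The intervals of RPL26L1 and RPL3L do not include 0, and the others drawn do.

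Behind these means, the members moved together within each pair. Their median difference was 0.09, 0.12, -0.18 and 0.08 in pairs 1 to 4, whereas the median over all genes was 0.00, 0.01, 0.00 and 0.00. In pair 1, 65 of the 81 were higher in pGRHL2 (51.8% of all genes), in pair 2 70 (52.3%) and in pair 4 69 (51.5%). In pair 3, 10 were higher (51.6% of all genes). The order of groups was thus turned round in pair 3: 50 members were higher in pairs 1, 2 and 4 and lower in pair 3, as were 7% of all genes, and 0 members had the opposite pattern. Pair 3 held the lowest of the 4 differences in 69 members, compared with 27.2% of all genes. The low share in pair 3 was not particular to the members. Of 183 other genes with a level of at least 10 and a coding length under 500 bases, 13.1% were higher there, against 12.3% of members. In pairs 1, 2 and 4 the shares of these other genes were 59.0%, 59.6% and 77.0%, against 80.2%, 86.4% and 85.2% of members.

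**Figure D3:**
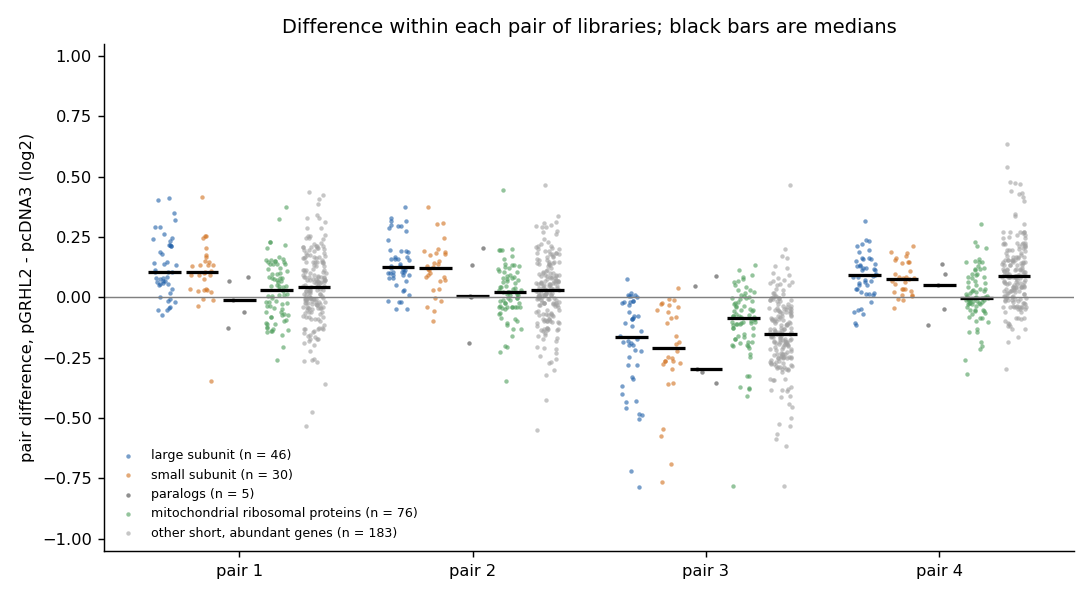
Difference between pGRHL2 and pcDNA3 (log2) in the 4 pairs, 1 point per gene, for the large subunit (46), the small subunit (30), the paralogs (5), mitochondrial ribosomal proteins (76) and other genes with a level of at least 10 and a coding length under 500 bases (183), with black bars for medians. In pairs 1, 2 and 4 the medians of both subunits lie between 0.08 and 0.12, and in pair 3 the medians of all 5 groups lie below 0.

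Both subunits showed this course. The large subunit had medians of 0.10, 0.12, -0.16 and 0.09, and the small subunit 0.10, 0.12, -0.21 and 0.08. For the paralogs, the medians were -0.01, 0.01, -0.29 and 0.05. As a share of the summed linear values of all genes, the members took 6.97% ± 0.27 in pcDNA3 and 7.14% ± 0.27 in pGRHL2 (SD, n = 4 libraries each). The highest share was that of pcDNA3 library 3 (7.38%) and the lowest that of pGRHL2 library 3 (6.73%), so that the groups overlapped. Both SDs and both extremes largely mirror each other through the equal pair means, and are no separate measures of replicate spread.

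The members with the largest increases were RPL23, RPL11, RPS25, RPL31, RPS3A and RPL34. RPL23 and RPL11 are large subunit proteins known to bind MDM2. RPL23 (chromosome 17, 38847860 to 38853764 of hg38) was at 12.89, 12.84, 13.06 and 12.93 in pcDNA3 libraries 1 to 4 and at 13.11, 13.17, 12.95 and 13.08 in pGRHL2. Its log2 FC was 0.15 ± 0.18 (95% interval -0.00 to 0.30, limma adjusted p = 0.315). It was higher in pairs 1, 2 and 4 only, and the groups overlapped.

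RPL11 (chromosome 1, 23691742 to 23696835), which joins RPL5 and the 5S RNA in the 5S particle, was at 12.75, 12.72, 12.98 and 12.79 in pcDNA3 and at 13.00, 13.03, 12.76 and 12.95 in pGRHL2. Library 3 was the highest of its group in pcDNA3 and the lowest in pGRHL2 (log2 FC 0.13 ± 0.24). RPL5 differed by -0.01, 0.07, -0.09 and 0.13 in the 4 pairs. RPS25, RPL31, RPS3A and RPL34 had log2 FCs of 0.12, 0.11, 0.11 and 0.10, each with pair 3 below 0. Leaving out 1 replicate moved these values to between 0.06 and 0.23 for RPS25, 0.03 and 0.26 for RPL31, 0.08 and 0.17 for RPS3A and 0.01 and 0.25 for RPL34, the highest being without replicate 3. RPL23 ranged from 0.09 to 0.23 and RPL11 from 0.06 to 0.24.

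RPL26L1, a close copy of RPL26, had the largest decrease. It lies on chromosome 5 (172958729 to 172969771) and was at 10.21, 10.27, 10.36 and 10.24 in pcDNA3 and at 10.15, 10.09, 10.00 and 10.12 in pGRHL2. The groups did not overlap, and the log2 FC was -0.18 ± 0.13 (95% interval -0.32 to -0.03, limma adjusted p = 0.213). Its parent RPL26 had a log2 FC of 0.04 ± 0.06, and the difference of the copy minus that of the parent was -0.05, -0.32, -0.36 and -0.13 in the 4 pairs. RPL26 has 14.5% of its exon bases in other genes, and reads that align equally well to several copies may be dropped at the minimum alignment quality of 10.

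The other decreases were smaller. RPL30 differed by -0.40 in pair 3 and by -0.02 to 0.05 in the others, RPS15 by -0.30 and by 0.01 to 0.04, and RPS28 by -0.76 and by 0.10 to 0.25. RPS9 was lower in pairs 1 to 3 (-0.35, -0.10 and -0.04) and higher in pair 4 (0.16), at a low level of 5.86 with copies on 9 alternate contigs. RPL22L1, the copy of RPL22, had a log2 FC of -0.08 ± 0.17.

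In 7 members the groups did not overlap, compared with 13.4% of all genes higher and 10.5% lower. In 4 of them pGRHL2 was the higher, among them RPL3L, RPL4 and RPL10A, the last singled out after its values were seen. RPL4 (chromosome 15, 66498015 to 66524532), a protein of the exit tunnel wall, was at 14.72, 14.72, 14.76 and 14.74 in pcDNA3 and at 14.82, 14.81, 14.77 and 14.79 in pGRHL2 (log2 FC 0.06 ± 0.04, limma adjusted p = 0.329). RPL3L, the striated muscle form of RPL3, was at 3.33 to 3.37 in pcDNA3 and at 3.42 to 3.46 in pGRHL2 (log2 FC 0.08 ± 0.04). The rlog used by the authors shrinks differences of weakly expressed genes, so this spread cannot be set against that of abundant members. The 3 lower ones were RPL26L1, RPS2 (log2 FC -0.04 ± 0.05) and RPS23 (-0.03 ± 0.02), the last also singled out after its values were seen.

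**Figure D4:**
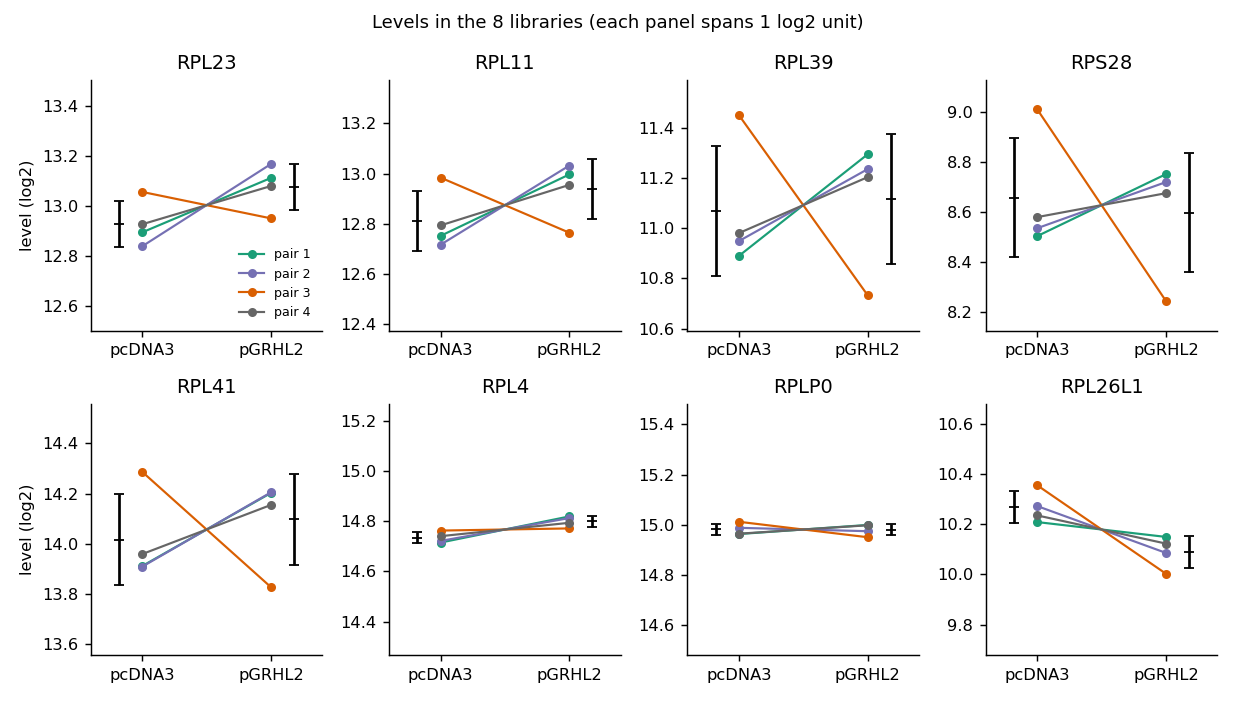
Values of selected members in each of the 8 libraries (log2), pcDNA3 and pGRHL2, with same-numbered libraries joined, and bars for the mean ± SD of 4 libraries. The SDs of the groups mirror each other by construction. Each panel spans 1 log2 unit. In pair 3 RPL39 is at 11.45 in pcDNA3 and 10.73 in pGRHL2, while in the other pairs pGRHL2 is the higher.

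The size of the swing in pair 3 differed widely between members and went with the length of the coding sequence. RPL37A was at -0.79 in pair 3, RPS28 at -0.76, RPL39 at -0.72 and RPS29 at -0.69, all small proteins, and the highest member was RPL7L1 at 0.09. RPL37A and RPS29 were chosen for naming after their values were seen. RPL39 (chromosome X, 119786504 to 119791630), which lines the exit tunnel, was at 10.89, 10.95, 11.45 and 10.98 in pcDNA3 and at 11.29, 11.24, 10.73 and 11.20 in pGRHL2. RPLP0, with a longer coding sequence, stayed between 14.95 and 15.01 in all 8 libraries. The 95% interval of RPL39 ran from -0.31 to 0.41 and that of RPLP0 from -0.07 to 0.06.

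Across the 81 members, Spearman's rho between coding length and pair difference was -0.43, -0.52, 0.74 and -0.14 in pairs 1 to 4. With mean transcript length in place of coding length, rho was -0.03, 0.01, 0.22 and 0.03. This is a description across genes, which share their libraries and are not independent replicates. The 27 members with the shortest coding sequence had medians of 0.21, 0.19, -0.37 and 0.10. For the 27 with the longest, the medians were 0.07, 0.08, -0.03 and 0.07. Coding lengths ran from 75 to 1281 bases with a median of 453.

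**Figure D5:**
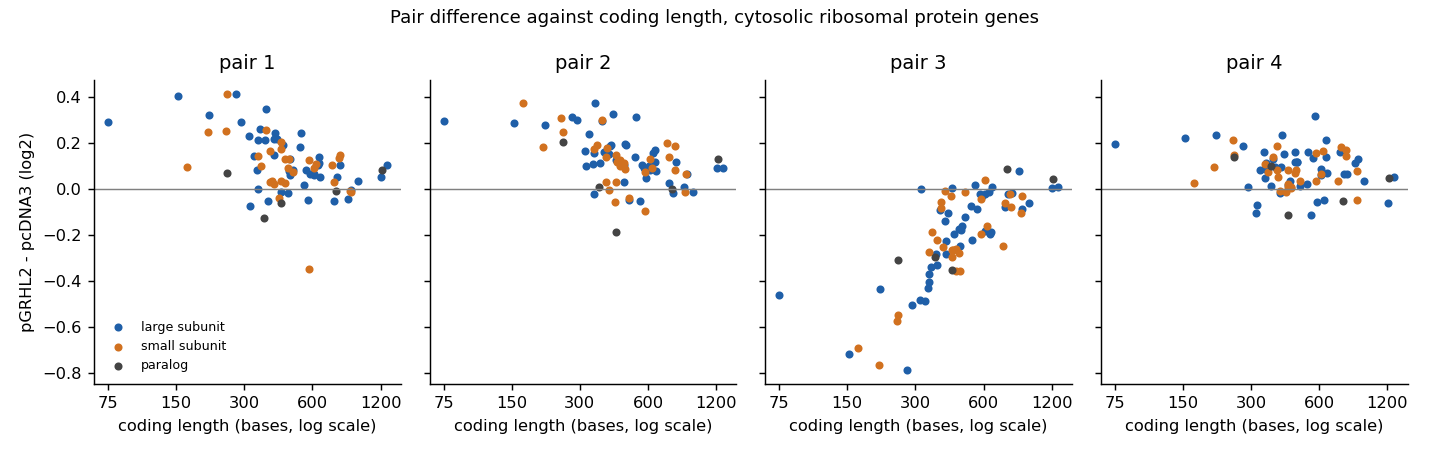
Coding length of the members (bases, log axis) against the difference between pGRHL2 and pcDNA3 (log2) in each pair. In pair 3 the shortest members lie lowest (rho 0.74) and in pairs 1 and 2 they lie highest (rho -0.43 and -0.52).

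Coding length moved with pair differences outside the family as well. Among 2088 other protein-coding genes with a level of at least 10, rho with mean transcript length was -0.16, -0.08, 0.20 and -0.31. In the same genes, rho with coding length was -0.21, -0.15, 0.43 and -0.52. Of these, the 183 with a coding length under 500 bases had medians of 0.04, 0.03, -0.15 and 0.09, and the 1905 longer ones -0.03, -0.03, -0.02 and -0.02. When trends with level, transcript length and GC content were removed from the values, the members' medians were 0.06, 0.10, -0.13 and 0.05, 22 in place of 10 were higher in pair 3, and the 27 shortest had a median of -0.30 there. With trends in level and coding length removed, an alternative chosen after seeing the data, the medians were 0.07, 0.08, -0.09 and 0.02. Then 27 were higher in pair 3 and the 27 shortest had a median of -0.21, and what lies behind the length relation was not tested.

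Members with a tract had pair medians of 0.12, 0.15, -0.23 and 0.09 (n = 46), and members without one 0.07, 0.08, -0.14 and 0.05 (n = 19). Those without a tract include the paralogs RPL26L1, RPL7L1 and RPS27L, and RPS28, whose run opens directly after the annotated start. Coding lengths ran from 75 to 951 bases with a tract and from 168 to 1281 without. The difference between these groups of members was not tested. In the P stalk, which recruits the elongation factors, RPLP1 and RPLP2 were at -0.43 and -0.37 in pair 3, whereas RPLP0 was at -0.06. RPSA, also known as the laminin receptor, differed by -0.03 to 0.08. RPS6, the small subunit protein phosphorylated downstream of mTOR, differed by 0.03, 0.14, -0.06 and 0.18.

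Since pair 3 was the pair of opposite sign, leaving it out raises the means by construction, and the values without it are a description. Without replicate 3 the median log2 FC was 0.10 in place of 0.03, against 0.01, 0.00 and 0.01 without replicates 1, 2 and 4. Of the 81 members, 73 then had a mean above 0 and 43 had an unadjusted limma p under 0.05 (15.5% of all genes). RPL41, the member with the shortest coding sequence, was the 1 member that passed the test (log2 FC 0.26, limma adjusted p = 0.0346), with 0.632% of all genes higher and 0.102% lower. This gene, singled out after its values were seen, was at 13.91, 13.91, 14.29 and 13.96 in pcDNA3 and at 14.20, 14.21, 13.83 and 14.16 in pGRHL2. Neither library 3 is marked as different by its labels.

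The paralogs differed from their parents mainly in level. RPL3L was lower than RPL3 by 11.5 log2 units. RPL7L1, RPL22L1 and RPS27L differed from RPL7, RPL22 and RPS27 by -1.82, -1.44 and -2.31. RPL26L1 lay above RPL26 by 3.21, and RPL26 itself was at 6.97. RPL26 has 17 annotated pseudogenes and RPL26L1 has 0. Reads that align equally well to such copies may be dropped at the minimum alignment quality of 10. The parents RPL3, RPL7, RPL22 and RPS27, all above their paralogs, have 13, 61, 22 and 30 such pseudogenes. The part of these copies in the levels was not tested. RPL7L1 lay between 12.22 and 12.31 in all 8 libraries. RPS27L differed by 0.07, 0.20, -0.31 and 0.14 in the 4 pairs, lower in pair 3 only.

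None of the proteins outside the rule passed the test. FAU, which encodes RPS30 fused to a ubiquitin-like protein, differed by 0.33, 0.14, -0.35 and 0.24. RPL36AL differed by 0.16, 0.10, -0.06 and 0.04. RACK1, a scaffold on the small subunit, was higher in all 4 pairs (0.09, 0.18, 0.17 and 0.02) with a limma adjusted p of 0.174.

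Other genes of translation were examined next to the members. Among 13 other translation mRNAs, 1 passed the test: EEF1A1, the elongation factor that brings aminoacyl-tRNA, was at 16.41, 16.42, 16.39 and 16.46 in pcDNA3 and at 16.56, 16.55, 16.58 and 16.52 in pGRHL2 (log2 FC 0.13 ± 0.06, limma adjusted p = 0.0307). The groups did not overlap, and the call was lost in the robust and trendless fits, with either filter on level, with trends removed, and without replicate 1, 2 or 3. The GRHL2 plasmid carries the promoter of this gene, and the part of plasmid sequence in this value was not tested. The pair medians of these mRNAs were 0.06, 0.07, 0.01 and 0.04, and 7 of the 13 were higher in pair 3. TPT1, a TOP mRNA singled out after its values were seen, was higher in pairs 1, 2 and 4 and lower in pair 3 (0.17, 0.27, -0.21 and 0.36).

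Of 25 ribosome biogenesis genes, 0 passed the test and 4 had an unadjusted limma p under 0.05 (16%, as among all genes). Their median log2 FC was -0.06, with pair medians of -0.04, -0.04, -0.03 and -0.06, and 8 of them were lower in all 4 pairs (10.5% of all genes and 15.3% of other genes with a level of at least 10). RRS1, an assembly factor of the large subunit, had a log2 FC of -0.22 ± 0.05 (adjusted p = 0.0854 in limma). None of 13 regulators of ribosome synthesis (median -0.02) and none of 172 ribosomal protein pseudogenes (median 0.00) passed. The 76 mitochondrial ribosomal proteins, which serve the separate ribosome of mitochondria, had pair medians of 0.03, 0.02, -0.09 and -0.00, and none passed.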

How the data were processed

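RNA-seq covered 4 libraries of HepG2 cells for each plasmid. According to the methods, the authors aligned reads to hg38 (Hisat2), counted exon reads with HTSeq without strand at a minimum alignment quality of 10, dropped genes with under 10 reads over all samples, applied the rlog of DESeq2 and divided by mean transcript length. Per the submitters' processing notes the versions were HISAT2 2.2.1, HTSeq 0.9.1 and DESeq2 1.40.2. The deposited values are log2: 3.71% are below 0, although the table is named as FPKM. Rlog shrinks differences of weakly expressed genes, and unstranded counting leaves reads over shared exon bases or near-identical copies uncertain. The length is a mean over annotated transcripts, so that levels of genes with unusual transcripts are approximate. Read counts were not analysed here, so that depth is unknown and no counting error is given. A stray trailing character on 1 value was deleted, and 0 value columns were of samples not listed here.

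In all 17561 genes the mean of each same-numbered pair was identical (largest spread 1.53e-13). Replicate number was thus used to adjust the values, a step not described in the methods, and same-numbered deviations correlate at -1 by construction, so that a correlation check of the pairing is void. The main test was limma 3.58.1 in R 4.3.3 (lmFit, eBayes with trend, Benjamini-Hochberg, threshold 0.05) with a replicate block (3 residual degrees of freedom). It was tested on simulated data first. Alternatives were no block, robust and trendless eBayes, median centring, an equal sum without GRHL2, level filters of 5 and 0, trend removal, a threshold of 0.01, and each replicate left out. Removing trends with level and coding length was added after seeing the data.

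Members and lists were chosen with earlier results of these data known. Named genes were GRHL2, called members, the 6 largest increases and decreases, the 5 highest and lowest levels, the P stalk, RPSA, RPL5, RPL11, RPS6, the paralogs with their parents, and called genes of the other lists. Coordinates and coding lengths are from GENCODE release 44 (81 of 81 members matched), and start sequences are from RefSeq. A few genes that these rules cover are not reported here and are left out of the plots that name genes.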

Additional observations from a re-analysis of the deposited data

Results flagged for a closer look

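Of 46 values examined over the 4 pairs, 9 had 1 pair far from the other 3 by Dixon's test, and all 9 were in pair 3. These were the pair 3 differences (log2, pGRHL2 minus pcDNA3) of RPS3A (-0.0796), RPL30 (-0.402), RPS28 (-0.764), RPS15 (-0.297), RPLP1 (-0.428) and RPL39 (-0.718). The medians of all members (-0.183), of the large subunit (-0.165) and of the small subunit (-0.207) were the other 3. These values share their libraries and are not independent, and some genes were named for the size of their fold changes in these data. The rate of about 1 in 20 that chance gives for independent values chosen beforehand therefore does not apply here. In pairs 1, 2 and 4 the same medians over all members lay between 0.0836 and 0.12. What sets pair 3 apart was not tested.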

How the results depend on the processing

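Without the replicate block, 3 members were higher and 1 lower, with 1821 genes higher and 1427 lower among all genes, 1 mitochondrial ribosomal protein higher and 2 lower, 3 other translation mRNAs higher, 5 biogenesis genes lower, 1 regulator higher and 1 lower, 1 protein outside the rule higher, and 5 pseudogenes higher and 1 lower. The fit without the block counts degrees of freedom that values with equal pair means do not hold, so it calls too freely. A threshold of 0.01 left 77 genes higher and 10 lower. Without trend there were 4 higher and 2 lower, and 0 translation mRNAs. With an equal sum without GRHL2, 495 genes were higher, the biogenesis median was -0.0494, the pseudogene median 0.0150, RPLP0 was at 0.0122 and RPL36A at 0.0050. A level of at least 5 left 63 genes higher, 0 translation mRNAs and a pseudogene median of 0.0094, and a level of at least 0 left 0 translation mRNAs. The robust fit called 1 mitochondrial ribosomal protein lower and 0 translation mRNAs. Removing level, length and GC trends gave 173 genes higher, 0 translation mRNAs, medians of -0.0323 (biogenesis) and -0.0077 (pseudogenes), and RPL3 at -0.0294 and RPS10 at -0.0080. Removing level and coding length trends gave 143 genes higher, 0 translation mRNAs, a biogenesis median of -0.0292, and RPL3 at -0.0084, RPS10 at -0.0160 and RPL7 at -0.0048, and pseudogenes could not be tested. The causes were not tested. Leaving out 1 replicate at a time, the counts ranged from 0 to 1 for members higher, 79 to 156 for all genes higher, 8 to 68 for all genes lower and 0 to 1 for translation mRNAs, and the biogenesis median from -0.071 to -0.033. The medians of the mitochondrial ribosomal proteins (-0.029 to 0.0059), regulators (-0.054 to 0.019) and pseudogenes (-0.0026 to 0.0033) changed sign. Without members that have a pseudogene in the table, the median level was 12.51 in place of 12.75. Over the same leave-one-out fits, the log2 FC changed sign and ranged from -0.14 to 0.0098 for RPL30, from -0.16 to 0.0060 for RPS9, from -0.16 to 0.18 for RPS28, from -0.085 to 0.026 for RPS15, from -0.014 to 0.019 for RPLP0, from -0.046 to 0.013 for RPL36A, from -0.0056 to 0.033 for RPS10, from -0.079 to 0.12 for RPLP1, from -0.039 to 0.15 for RPLP2, from -0.0079 to 0.065 for RPL5, from -0.019 to 0.027 for RPL7L1, from -0.034 to 0.14 for RPS27L, from -0.035 to 0.045 for RPL7, from -0.015 to 0.068 for RPL22, from -0.069 to 0.31 for RPL39 and from -0.051 to 0.27 for RPS27. Of the 144 named gene values from these fits, 119 kept direction and side of the threshold, as did 306 of the 322 from the other alternatives. The members' median ranged from 0.0018 (without replicate 2) to 0.1005 (without replicate 3) and was 0.0280 with level and coding length trends removed. Unknown depth limits what can be said of weakly expressed members.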
